A study of Rattus norvegicus with 2 samples.

Results

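The 71 genes described here encode proteins of the mitochondrial ribosome in the rat and were read on 2 arrays of A7r5 cells, 1 from cells that overexpressed the glucose transporter GLUT1 and 1 from control cells. They were found by their gene symbols: the probe sets taken had a single annotated gene whose symbol began with Mrpl (large subunit) or Mrps (small subunit) and a digit, pseudogenes left out. This gave 45 Mrpl and 26 Mrps genes of 10411 genes on the array, read by 82 probe sets of 15923, and the brightest probe set stood for each gene. The family was chosen by its log2 ratio on these same arrays, because it had been slightly higher in GLUT1 cells. Every ratio, count and median below is therefore a description of the values that led to the choice, and no test was made on them.

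A7r5 is a rat cell line, derived from the embryonic aorta, with features of smooth muscle. Infection lasted 72 hours. The GLUT1 group received an adenovirus with the human GLUT1 cDNA and the control group an empty adenovirus, both at a multiplicity of infection of 10 (1 standing for 100 particles per cell) in medium with 5.5 mM glucose. Both groups thus carried an adenovirus. RNA from 3 days was pooled into 1 sample per group, and each pool was read on 1 array. There was no replicate, so no difference here has a replicate check, and less RNA per cell cannot be told apart from fewer cells of a type. Immunoblots for GLUT1 were made by the submitters and are not analysed here.

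Mitochondria translate a handful of respiratory chain and ATP synthase subunits from their own DNA, on ribosomes of their own. The RNAs of that ribosome come from mitochondrial DNA, whereas all of its proteins are encoded in the nucleus, made in the cytosol and imported. Some of the proteins have counterparts in the bacterial ribosome and others occur only in mitochondria. Nuclear factors such as NRF1, the ETS protein GABP and YY1 are known to bind promoters of nuclear genes for mitochondrial proteins.

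Promoters are shown because the motifs of those 3 factors are a feature the choice of genes did not use, and tell which members share it. For each motif the promoter is that of the member with the highest log2 ratio among those that hold it. Each runs from 250 bases before the annotated start to 50 bases after it, 5′ to 3′ on the strand of the gene, from RefSeq, build GRCr8. Capitals mark matches to the NRF1 motif (GCGCATGCG), the ETS motif bound by GABP (CCGGAAG) and the YY1 motif (AANATGGCG), all searched on both strands.
Mrpl44: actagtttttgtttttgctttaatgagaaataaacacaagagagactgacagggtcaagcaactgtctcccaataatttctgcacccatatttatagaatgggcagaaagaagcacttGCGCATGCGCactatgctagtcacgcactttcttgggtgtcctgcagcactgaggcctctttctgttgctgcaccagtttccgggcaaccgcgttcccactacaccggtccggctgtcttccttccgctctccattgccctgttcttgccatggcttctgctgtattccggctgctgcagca
Mrps31: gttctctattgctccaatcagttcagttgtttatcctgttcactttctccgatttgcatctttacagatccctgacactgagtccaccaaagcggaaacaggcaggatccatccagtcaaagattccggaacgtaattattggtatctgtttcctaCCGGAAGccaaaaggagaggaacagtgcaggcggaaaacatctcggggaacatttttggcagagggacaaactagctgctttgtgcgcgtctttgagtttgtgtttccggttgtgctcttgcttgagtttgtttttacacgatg
Mrpl37: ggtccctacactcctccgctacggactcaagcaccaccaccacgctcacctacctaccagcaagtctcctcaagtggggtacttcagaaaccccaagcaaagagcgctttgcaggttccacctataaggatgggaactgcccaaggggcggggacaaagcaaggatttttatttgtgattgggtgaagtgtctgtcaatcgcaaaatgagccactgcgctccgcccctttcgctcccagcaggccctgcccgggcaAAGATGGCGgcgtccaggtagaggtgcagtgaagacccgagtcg
The Mrpl44 promoter lies at chr9:88554800-88555099 on the plus strand, and the first base of its NRF1 match is at -132, with an overlapping match on the other strand at -131. The Mrps31 promoter lies at chr16:76324016-76324315 on the minus strand, with its ETS match at -94. The Mrpl37 promoter lies at chr5:127074918-127075217 on the minus strand, and its YY1 match begins at base 7 of the transcript, just downstream of the start. Positions count the annotated start as 1, with negative numbers before it.

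Of the 71 members, 57 had a promoter in the table, and 30 of these (52.6%) held at least 1 of the 3 motifs, against 29.8% of the promoters of 5201 measured genes. By subunit it was 22 of 37 Mrpl and 8 of 20 Mrps promoters. The ETS motif was in 19 member promoters (33.3%), against 20.9% of those of measured genes and 9.22% of all 27457 promoters, 1 per gene. The YY1 motif was in 12 (21.1%), against 8.38% and 3.33%. The NRF1 motif was in 5 (8.77%), against 3.94% and 1.66%. All 3 motifs were thus at a larger share of member promoters than of both wider sets. Matches to the YY1 motif lay between -17 and 30 around the start, while ETS matches were spread from -94 to 31. Against measured genes the Sp1 motif (GGGCGG) went the other way, in 50.9% of member promoters against 67.3%. It was in 34.9% of all promoters, a smaller share than among members. The median GC content was 56% for members, 61.7% for measured genes and 52.3% for all promoters. The E-box (CACGTG) was in 8.77% of member promoters, 10.4% of those of measured genes and 6.65% of all. CCAAT was in 45.6%, 38.6% and 37.7% in that order, and TATAAA in 12.3%, 6.33% and 14.3%. A match is a run of letters and not a site of binding.

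**Figure D1:**
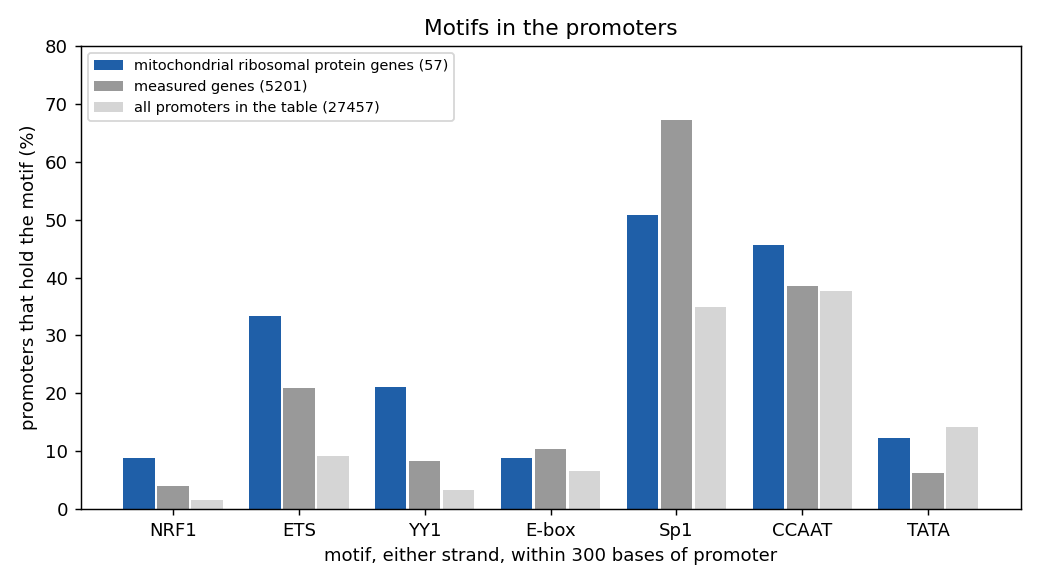
Share of promoters (percent, vertical axis) that hold each of 7 motifs on either strand, for 57 mitochondrial ribosomal protein genes, 5201 measured genes and all 27457 promoters of the table. The ETS bars stand at 33.3%, 20.9% and 9.22%, and the YY1 bars at 21.1%, 8.38% and 3.33%.

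The motifs did not sort the members by their log2 ratio in 1 direction. Members with the ETS motif had a median log2 ratio of 0.09, and the 38 without it 0.03. Members with the YY1 motif had a median of -0.01, and the 45 without it 0.05. The 5 members with the NRF1 motif had a median of 0.10, and the 52 without it 0.03. Of the 12 with the YY1 motif, Mrpl37 had the highest log2 ratio, 0.32, and Mrps14 the lowest, -0.18.

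Member promoters also had close neighbours. In 16 of 57 (28.1%) another protein-coding gene on the opposite strand had its start within 1000 bases of the member's own, head to head. Genes that overlapped at their starts counted too, as Mrpl57 and Ska3 did, 1 of the 16. By the same rule the share was 14.0% of 5179 measured protein-coding genes and 7.98% of 18999 protein-coding genes. Mrpl46 and Mrps11, a large and a small subunit gene, are a head-to-head pair. Mrpl46 had an intensity of 1037 on the GLUT1 array and 1107 on the control array, while Mrps11 had 1056 on the GLUT1 array and 1007 on the control array, so the 2 genes differed in sign at log2 ratios of -0.09 and 0.07. Mrpl18 faces Tcp1, which encodes a subunit of a cytosolic chaperonin. Its log2 ratio was -0.05, and that of Tcp1 0.03. Mrpl32 faces the proteasome gene Psma2, at log2 ratios of -0.06 and 0.02. Both genes were measured in 7 such pairs, Mrpl46 and Mrps11 counted once, and in 3 of these 7 the ratios had the same sign. These 3 were Mrpl2 and Klc4, at 0.15 and 0.19, Mrpl51 and Ncapd2, at 0.09 and 0.01, and Mrps18b and Ppp1r10, at 0.10 and 0.02. Mrps27 and Ptcd2, at -0.15 and 0.29, differed in sign like the pairs above. The share among pairs of other genes was not computed.

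All 71 members were measured, meaning that their mean log2 intensity reached the median of all probe sets on the array, 8.99, against 58.7% of all 10411 genes. The dimmest member was Mrpl44, which encodes a protein near the exit tunnel of the large subunit, with an intensity of 606 on the GLUT1 array and 535 on the control array. The brightest was Mrpl33, the counterpart of a small bacterial large-subunit protein, at 10497 on the GLUT1 array and 10351 on the control array. The members thus spanned a wide range of brightness, with Mrpl44 nearest to the filter at an intensity of 507 and none below it. An intensity depends on the probes as well as on the transcript, so the order of brightness is no order of mRNA levels.

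The 2 subunits overlapped in brightness. The Mrpl genes had intensities from 606 to 10497, median 2293, on the GLUT1 array and from 535 to 10351, median 2214, on the control array. The Mrps genes had intensities from 799 to 5616, median 1991, on the GLUT1 array and from 629 to 5180, median 1847, on the control array. In mean log2 intensity the median was 11.11 for Mrpl and 10.92 for Mrps, beside 10.65 for all measured genes. The 4 brightest members all had Mrpl symbols, which 45 of the 71 members carry. After Mrpl33 came Mrpl43, found only in mitochondria, at 7848 on the GLUT1 array and 8350 on the control array. Mrpl54 and Mrpl27 completed the 4 brightest of the large subunit, Mrpl27 at 6674 on the GLUT1 array and 6294 on the control array. Mrpl27 has a bacterial counterpart that sits beside the peptidyl transferase centre.

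In the small subunit the brightest was Mrps24, which has a bacterial counterpart at the mRNA entry, at 5616 on the GLUT1 array and 5180 on the control array. Mrps12, the counterpart of the bacterial protein at the decoding centre, had 5017 on the GLUT1 array and 4798 on the control array. Mrps33 of the head had 4329 and Mrps23 had 4123 on the GLUT1 array, against 4123 and 3696 on the control array. All 4 lay above 0, at log2 ratios from 0.07 to 0.16, where 76.9% of Mrps genes and 52.2% of all measured genes did. Of the 4 brightest Mrpl genes, Mrpl33, Mrpl54 and Mrpl27 lay above 0 and Mrpl43 below.

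**Figure D2:**
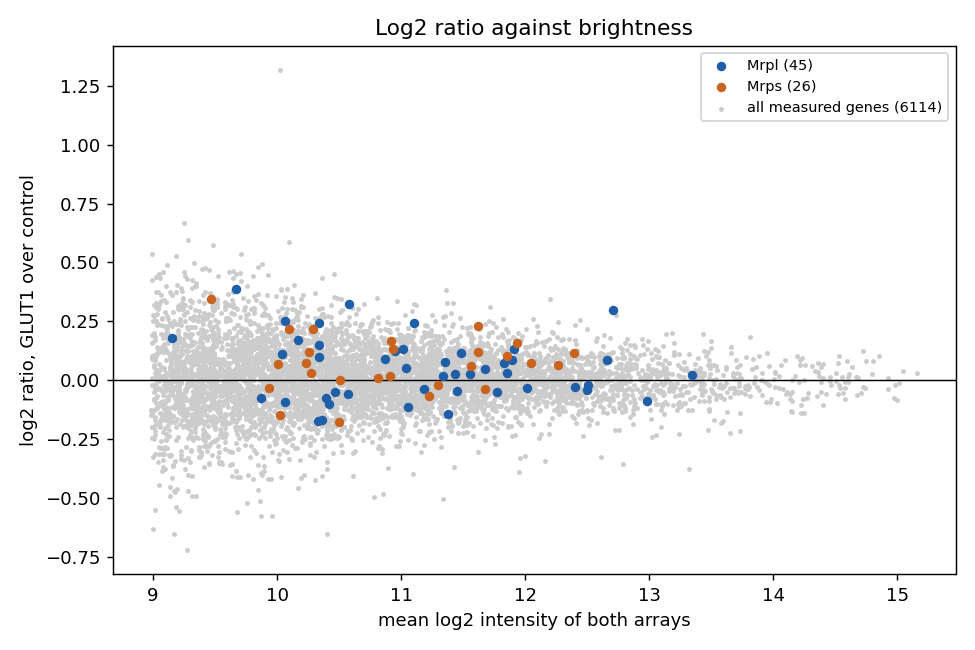
Log2 ratio, GLUT1 over control (vertical axis), against the mean log2 intensity of both arrays (horizontal axis) for 45 Mrpl genes, 26 Mrps genes and all 6114 measured genes. Most members lie within the cloud of all genes, from -0.18 to 0.39, and Mrpl54 stands at its upper edge; the cloud narrows with brightness.

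Differences between the GLUT1 and control pools were small throughout the family. The median log2 ratio, GLUT1 over control, was 0.06 over the 71 members, a 1.04-fold difference, against 0.01 over all 6114 measured genes. The ratios ran from -0.18 to 0.39 with an SD of 0.13 among members, and the SD over all measured genes was 0.14. Of the members, 47 lay above 0 and 24 below, so that 66.2% were above 0, against 52.2% of all measured genes. At a size of 1.2-fold, 4 members (5.63%) were higher in GLUT1 cells, against 3.70% of all measured genes. None was 1.2-fold lower, where 2.72% of all measured genes were, and none differed 2-fold either way, where 0.0164% of measured genes did. With all measured genes cut by ratio into 4 equal groups, from lowest to highest, the groups held 10, 15, 20 and 26 members. The choice of the family used this contrast, so nothing is read from these shares.

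Within-array precision puts a scale on these values. The local spread, a robust SD of the log2 ratios of the probe sets nearest in brightness, ran from 0.078 to 0.20 for the members. It holds array noise and real differences together. By more than 2 local spreads, 6 members were higher and 0 lower in GLUT1 cells, where 2.91% and 2.98% of all measured probe sets were. The 6 were Mrpl54, Mrpl37, Mrpl14, Mrpl52, Mrps17 and Mrps31. In 702 genes with a pair of measured probe sets, the SD of a single log2 ratio was 0.13, about the same as the SD among members. The ratios of such pairs had the same sign in 50.9% of genes, with a Pearson r of 0.043 across the 702 genes. Genes are not independent replicates, and the pairs share both arrays.

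The highest log2 ratio belonged to Mrpl14, the counterpart of a bacterial protein on the face of the large subunit that meets the small one. Its intensity was 933 on the GLUT1 array and 714 on the control array, a log2 ratio of 0.39 and a 1.31-fold difference, with a local spread of 0.17. Mrps31, a mitochondria-specific protein of the head of the small subunit, was next. It had 799 on the GLUT1 array and 629 on the control array, a log2 ratio of 0.35. Both genes are among the dimmer members, and 98.7% or more of all measured genes had a lower ratio than either.

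Mrpl37, found only in mitochondria, had an intensity of 1715 on the GLUT1 array and 1373 on the control array, a log2 ratio of 0.32. Mrpl54, another mitochondria-specific protein, was much brighter, with 7409 on the GLUT1 array and 6037 on the control array, a log2 ratio of 0.30. Its local spread was 0.085, and its distance from the middle of similarly bright probe sets was 3.48 of these spreads, the largest such value among members. These 4 were the members past 1.2-fold, with Mrpl54 at 1.23-fold just inside that size. Mrpl57, a small mitochondria-specific protein, lay just outside at 1.19-fold, with 1166 on the GLUT1 array and 980 on the control array.

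Mrpl52 and Mrpl38 both encode proteins of the central protuberance, the crown of the large subunit. Mrpl52 had 2397 on the GLUT1 array and 2029 on the control array, a log2 ratio of 0.24. Mrpl38 had 1410 on the GLUT1 array and 1194 on the control array, also a log2 ratio of 0.24. The upper 10 also held 3 further small-subunit genes. Mrps17, with a bacterial counterpart, had 3399 on the GLUT1 array and 2898 on the control array, a log2 ratio of 0.23. Mrps34, which in humans is a gene of Leigh syndrome, had 1348 on the GLUT1 array and 1160 on the control array. Mrps28 had 1179 on the GLUT1 array and 1015 on the control array, and like Mrps34 a log2 ratio of 0.22.

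At the lower end the differences were smaller in size. Mrps14, the counterpart of a bacterial protein of the small-subunit head, had 1359 on the GLUT1 array and 1538 on the control array, a log2 ratio of -0.18. Mrpl49, found only in mitochondria, had 1210 on the GLUT1 array and 1367 on the control array, a log2 ratio of -0.17. Mrpl40 of the central protuberance had 1238 on the GLUT1 array and 1392 on the control array, also a log2 ratio of -0.17. All 3 were nearer to the middle of similarly bright probe sets than 2 local spreads.

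Mrps27, a pentatricopeptide repeat protein that binds RNA, had 986 on the GLUT1 array and 1094 on the control array, a log2 ratio of -0.15. Mrpl41 had 2538 on the GLUT1 array and 2804 on the control array, a log2 ratio of -0.14. Mrpl36, the counterpart of a very small bacterial large-subunit protein, had 2044 on the GLUT1 array and 2214 on the control array, a log2 ratio of -0.11. Mrpl30, at -0.10, Mrpl46 and Mrpl43, both at -0.09, and Mrpl39, at -0.08, completed the lowest 10 in log2 ratio. Of these 10 lowest members 8 have Mrpl symbols, and of the 10 highest 6 do, where 45 of all 71 members do. Nothing is read from these counts.

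**Figure D3:**
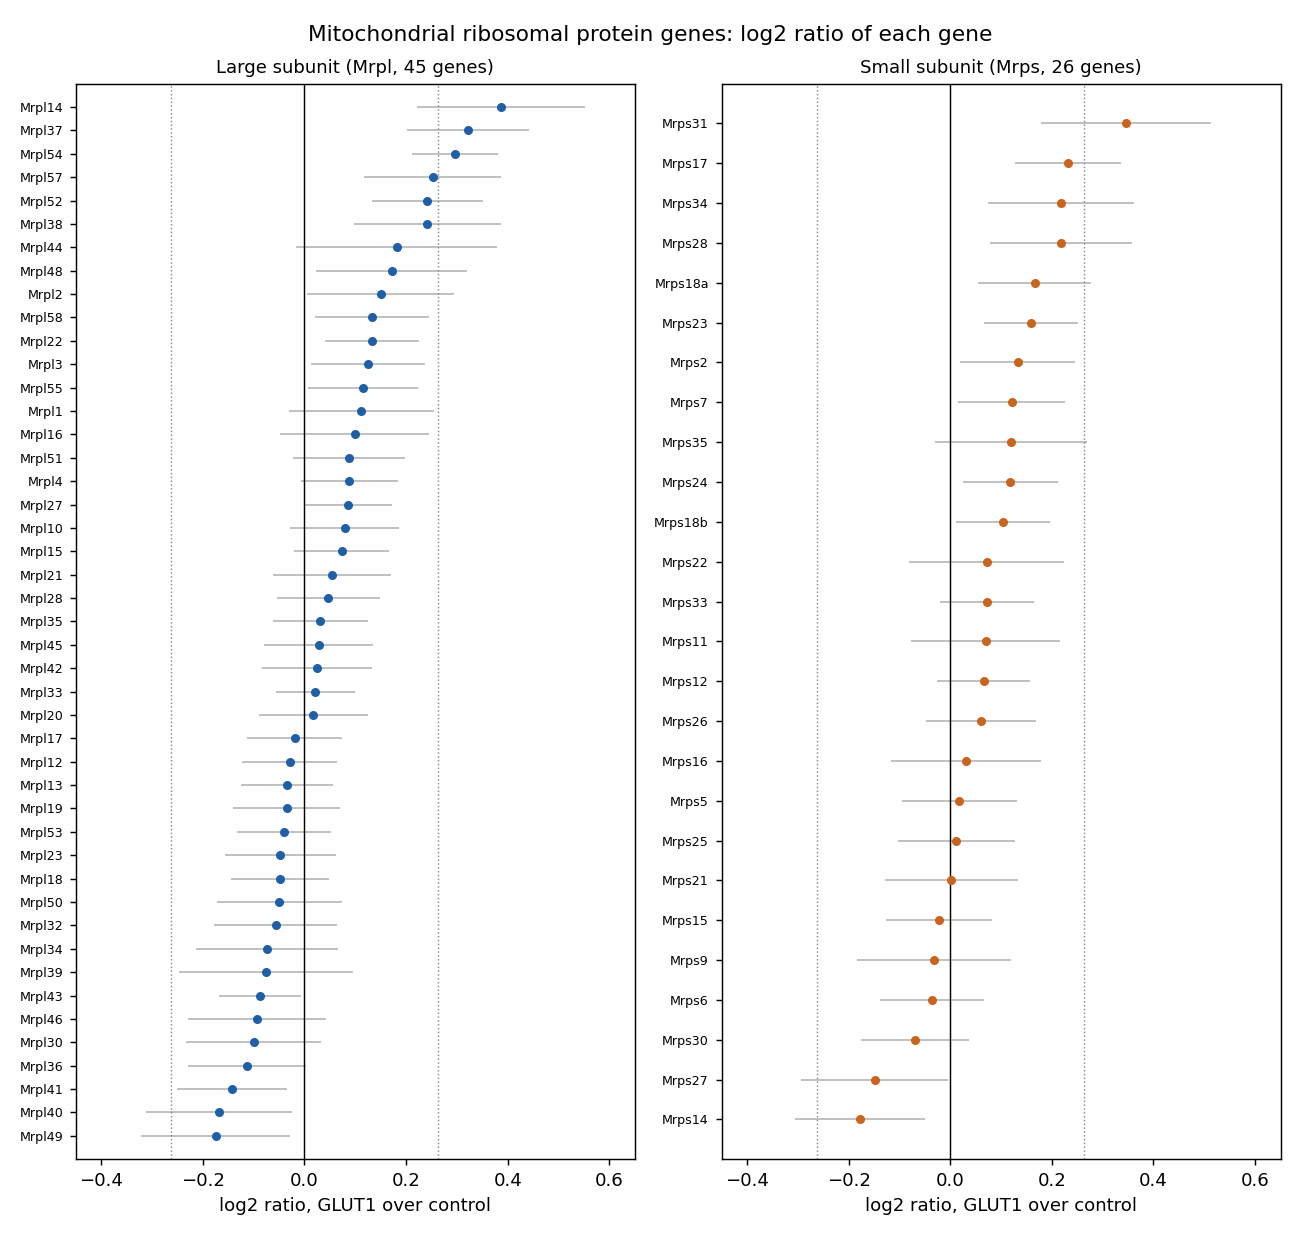
Log2 ratio, GLUT1 over control (horizontal axis), of each of the 45 Mrpl genes (left) and 26 Mrps genes (right), ordered by ratio. Points are the brightest probe set of a gene, grey bars are plus and minus the local spread, and dotted lines mark 1.2-fold; Mrpl14, Mrpl37, Mrpl54 and Mrps31 lie past the upper line and no gene past the lower.

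The subunits were then set side by side. The median log2 ratio was 0.03 over the 45 Mrpl genes and 0.07 over the 26 Mrps genes, a difference (Mrpl minus Mrps) of -0.04, with no test. Mrpl ratios ran from -0.17 to 0.39, with quartiles at -0.05 and 0.13, and Mrps ratios ran from -0.18 to 0.35, with quartiles at 0.00 and 0.13. The ranges thus overlapped almost entirely. Of the Mrpl genes 27 of 45 (60%) lay above 0, and of the Mrps genes 20 of 26 (76.9%). At 1.2-fold 3 Mrpl genes (6.67%) and 1 Mrps gene (3.85%) were higher, beside 3.70% of all measured genes. With 3 more large-subunit genes whose symbols the annotation writes in lower case (mrpl9, mrpl11 and mrpl24), added after seeing the data, the Mrpl median was 0.05 and the difference -0.03. The means differed by less than the medians, at 0.05 for Mrpl and 0.07 for Mrps.

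**Figure D4:**
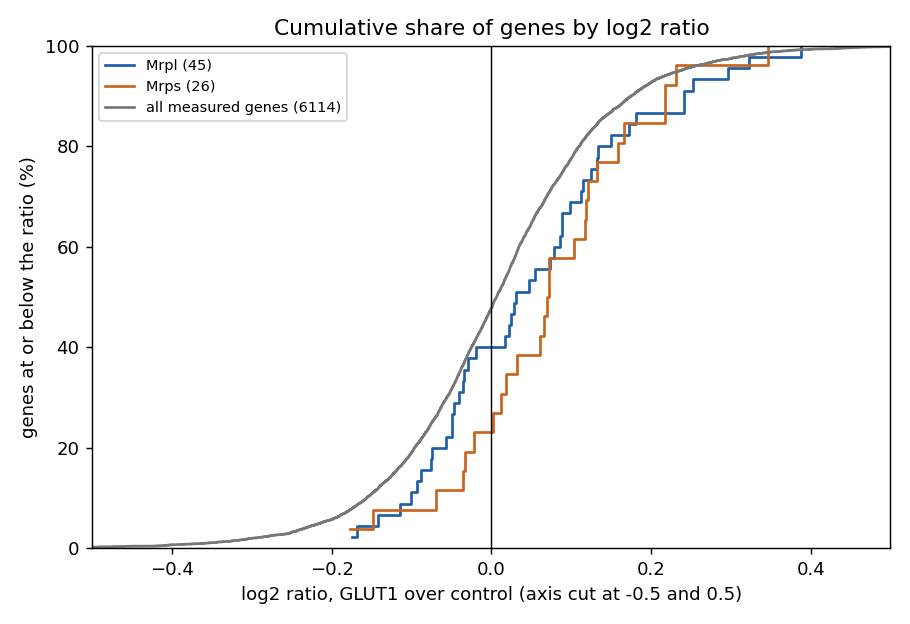
Cumulative share of genes (percent, vertical axis) at or below each log2 ratio, GLUT1 over control (horizontal axis), for 45 Mrpl genes, 26 Mrps genes and all 6114 measured genes. The curve of all genes crosses 0 highest, since 52.2% of all measured genes lie above 0, against 60% of Mrpl and 76.9% of Mrps genes.

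A symbol does not always tell the place of a protein. Mrps18a and Mrps30 carry names of the small subunit, yet their proteins sit in the large subunit of mammalian mitochondrial ribosomes. Mrps18a had 2049 on the GLUT1 array and 1828 on the control array, a log2 ratio of 0.17. Mrps30 had 2331 on the GLUT1 array and 2447 on the control array, a log2 ratio of -0.07. Mrps18b, a relative of Mrps18a in the small subunit, had 3844 on the GLUT1 array and 3580 on the control array, a log2 ratio of 0.10. The pair of large-subunit proteins with small-subunit names thus lay on opposite sides of 0.

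Grouped by place in the ribosome, no part stood on 1 side of 0. Of the 8 central protuberance genes 5 were above and 3 below 0, with a median log2 ratio of 0.12, and among them Mrpl52 and Mrpl38 are near the top of the family and Mrpl40 near its bottom. Mrpl58, which encodes a peptidyl-tRNA hydrolase built into this part and able to free stalled chains, had 2161 on the GLUT1 array and 1972 on the control array, a log2 ratio of 0.13. Of 7 genes of the small-subunit head 5 were above and 2 below 0, with a median of 0.12. This group holds Mrps31 at 0.35 and Mrps14 at -0.18, nearly the whole range of the family.

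The exit tunnel genes were closer together. Of the 6 read here 3 were above and 3 below 0, with a median log2 ratio of 0.00, from Mrpl44 at 0.18 to Mrpl39 at -0.08. Mrpl45, whose protein ties the tunnel exit to the inner membrane, had 3041 on the GLUT1 array and 2985 on the control array, a log2 ratio of 0.03. Of 4 platform genes of the small subunit 2 were above and 2 below 0, with a median of -0.01. In the stalk, which recruits translation factors, Mrpl10 had 2694 on the GLUT1 array and 2553 on the control array, a log2 ratio of 0.08. Mrpl12, which also binds the mitochondrial RNA polymerase, had 5367 on the GLUT1 array and 5482 on the control array, a log2 ratio of -0.03. Mrps12 stood at 0.07.

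Genes were also grouped by whether the protein has a bacterial counterpart. Among genes with an Mrpl symbol the median log2 ratio was 0.03 over 19 mitochondria-specific genes, of which 11 lay above 0, and 0.04 over 26 genes with a bacterial counterpart, of which 16 lay above 0. Among genes with an Mrps symbol it was 0.07 over 10 mitochondria-specific genes, Mrps30 among them, of which 8 lay above 0, and 0.07 over 16 with a counterpart, Mrps18a among them, of which 12 lay above 0. The SD of large-subunit ratios was 0.17 for the mitochondria-specific genes and 0.10 for those with a counterpart. Their probe sets had a median of 10.58 in mean log2 intensity for the mitochondria-specific genes and 11.40 for those with a counterpart. The part of brightness in the difference in SD was not tested.

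Brightness and log2 ratio were weakly related among members, with a Pearson r of -0.13 and a Spearman rho of -0.09 over 71 genes that share the same pair of arrays. By subunit the r and rho were -0.17 and -0.12 over 45 Mrpl genes, and -0.006 and 0.05 over 26 Mrps genes. The 35 dimmest members had a median log2 ratio of 0.09 and an SD of 0.15, and the 35 brightest a median of 0.03 and an SD of 0.10. Among the dimmest 24 lay above 0, and among the brightest 22. Of the 4 members past 1.2-fold 3, namely Mrpl14, Mrps31 and Mrpl37, were in the dimmer group.

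A second probe set was present for 8 genes. Mrpl37 was read by 3 probe sets with log2 ratios of 0.32, 0.08 and 0.21, all positive, the last of them below the brightness filter. Mrpl57 gave 0.25 and 0.09, and Mrpl52 gave 0.24 and, below the filter, 0.06. In these 3 genes of the upper 10 the second probe set was higher in GLUT1 cells too, by less than the first. The first probe set had placed them in the upper 10, so nothing is read from this.

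Mrpl51 had 4 probe sets, and they disagreed. The brightest had 1931 on the GLUT1 array and 1818 on the control array, a log2 ratio of 0.09, while the second had 1550 on the GLUT1 array and 1672 on the control array, a log2 ratio of -0.11. The other 2 gave 0.05 and 0.23. Mrpl49 gave -0.17 and -0.03, Mrpl40 gave -0.17 and, below the filter, -0.20, and Mrpl50 gave -0.05 and -0.04. These 3 genes were lower in GLUT1 cells by each of their probe sets. The second probe set of Mrps26 was at the floor on both arrays, and its first gave 0.06. Of the 5 genes whose second probe set was measured, 4 had the same sign by both. Over all 702 genes with such a pair the share was 50.9%, and nothing is read from 5 genes.

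Other mitochondrial genes give the family its setting. Beside the counts below, 52.2% of all measured genes lay above 0, 3.70% were 1.2-fold higher and 2.72% were 1.2-fold lower. Of 5 further proteins of the mitochondrial ribosome whose symbols do not begin with Mrp, 4 were above and 1 below 0, with a median log2 ratio of 0.11. Chchd1 had 838 on the GLUT1 array and 705 on the control array, a log2 ratio of 0.25. Gadd45gip1 had a log2 ratio of 0.21 and Dap3, a GTP-binding protein of the small subunit, 0.11. None of the 5 reached 1.2-fold, and all 5 were read by the same pair of arrays as the members.

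The genes that serve this ribosome lay on both sides of 0, as did those of the ribosome itself. Of 6 measured genes listed for mitochondrial translation 2 were above and 4 below 0, with a median log2 ratio of -0.08. They were Tufm, Gfm1, Mrrf, Oxa1l, Lrpprc and Slirp, and not all of them are translation factors. Tufm, the elongation factor that brings aminoacyl-tRNA, had 4756 on the GLUT1 array and 4455 on the control array, a log2 ratio of 0.10. Slirp and the recycling factor Mrrf were both at -0.12. Of 10 assembly factors 5 were above and 5 below 0, with a median of 0.00, and the farthest were Nsun4, an rRNA methyltransferase, at -0.17 and the GTPase Mtg1 at -0.13.

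Of 6 genes of mitochondrial DNA transcription and replication 2 were above and 4 below 0, with a median log2 ratio of -0.09. The elongation factor gene Tefm had 487 on the GLUT1 array and 606 on the control array, a log2 ratio of -0.31, and Ssbp1, encoding the single-stranded DNA binding protein, was at -0.15. The polymerase gene Polrmt was at 0.06 and Tfam, which packages mitochondrial DNA, at 0.03. Of 5 mitochondrial tRNA synthetases, Gars1 and Kars1 (which also act in the cytosol) among them, 3 were above and 2 below 0. Tars2 was at 0.44 with 610 on the GLUT1 array and 449 on the control array, and Hars2 at -0.15.

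Of 71 measured subunits of the respiratory chain and ATP synthase, 51 (71.8%) were above and 20 below 0, with a median log2 ratio of 0.03. That share was larger than the 66.2% of members and the 52.2% of all measured genes above 0. None reached 1.2-fold, and the farthest from 0 were the ATP synthase subunits Atp5me at 0.22 and Atp5f1e at 0.20. Protein import genes had a median of 0.01 over 23, with 14 above and 9 below 0, led by Tomm6 at 0.20 and Tomm40 at 0.16. Proteins of the cytosolic ribosome, which makes the proteins of the mitochondrial ribosome, had a median of -0.01 over 39, with 16 above and 23 below 0. Rpl21 and Rpl24 were the farthest of them, at -0.23 and -0.22. Of 12 nuclear regulators listed 7 were on the array, the gene for NRF1 not among them, and 4 were measured. Myc was at 0.17, Gabpb1, a subunit of GABP, at 0.05, Sp1 at 0.02 and Max at -0.04. Below the filter lay Yy1, at 309 on the GLUT1 array and 396 on the control array, and Esrra, at 490 and 359. Ppargc1a, the coactivator of mitochondrial genes, had a deposited intensity of -37 on the GLUT1 array and -7 on the control array. Both values were under the floor of 175 below which values were levelled.

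**Figure D5:**
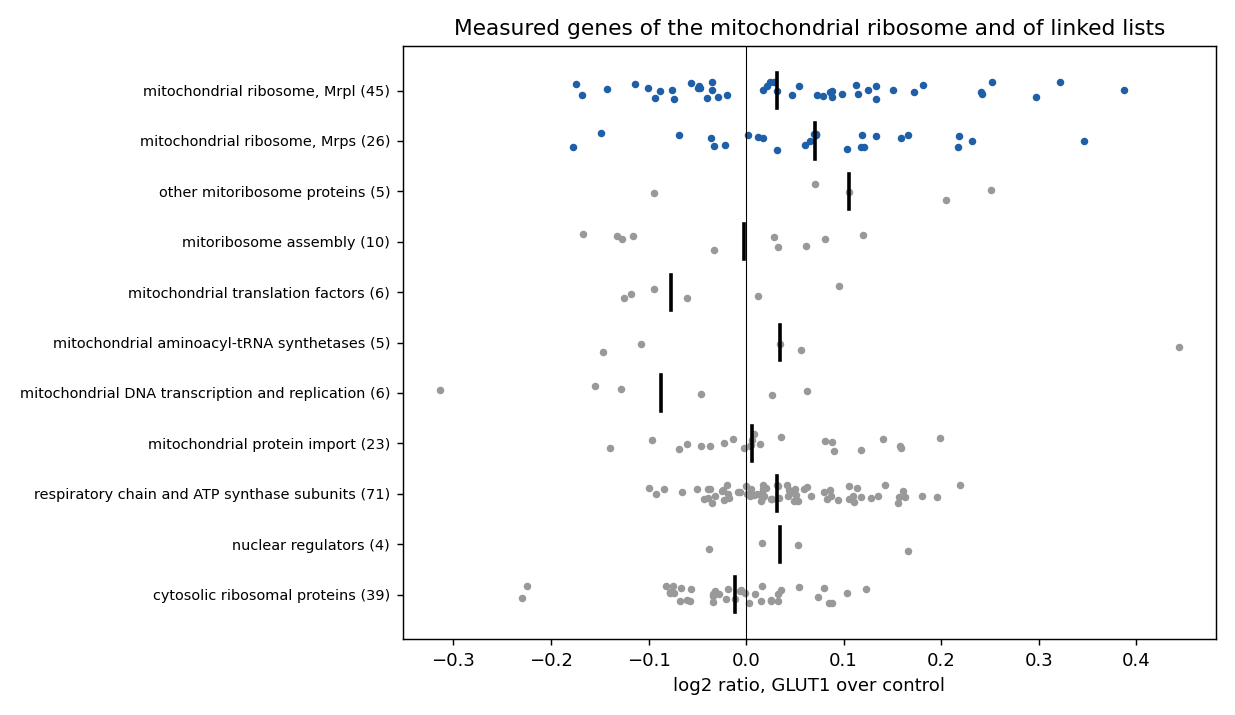
Log2 ratio, GLUT1 over control (horizontal axis), of the measured genes of 11 groups, with the number of genes in brackets; each point is a gene and each black bar the group's median. The Mrpl and Mrps medians are 0.03 and 0.07, and those of the cytosolic ribosomal proteins and of mitochondrial DNA transcription and replication are -0.01 and -0.09.

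Both pools carried smooth muscle markers. Of 10 such genes 8 were measured, 5 above and 3 below 0 in log2 ratio, the farthest being Smtn at 0.19 and Cald1 at -0.13. Acta2 was at 16687 on the GLUT1 array and 16303 on the control array, and Tagln at 7369 on the GLUT1 array and 7153 on the control array. Myh11, the myosin of mature smooth muscle, lay below the filter at 228 on the GLUT1 array and 227 on the control array. Of the markers of other cell types, 1 of 6 endothelial, 2 of 8 leukocyte and 1 of 5 epithelial genes were measured. The endothelial gene Pecam1 had an intensity of 36 and the leukocyte gene Ptprc 77 on the GLUT1 array, against 26 and 62 on the control array, all under that floor. The summed intensity of the measured markers was 59417 for smooth muscle, 479 for endothelium, 2412 for leukocytes and 6500 for epithelium (Krt8) on the GLUT1 array, against 59700, 584, 2587 and 6193 on the control array. These sums run over 8, 1, 2 and 1 genes with unlike probes, so they give no share of cells. Among the measured markers the endothelial Esam had a log2 ratio of -0.28 and the leukocyte genes C1qb and Cd14 -0.41 and 0.18. Their part in the ratios of the family was not tested.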

How the data were processed

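Probe set intensities of 2 arrays were used, 1 per group. The authors deposited whole-number intensities, with a median of 508 on both arrays and a mean of 1497 on the GLUT1 array and 1500 on the control array. At or below 0 were 3.04% of values on the GLUT1 array and 3.01% on the control array. The sources used here do not give the software or the normalization. Biotin-labelled cRNA was made from 5 µg of total RNA, per the labels' protocols. Of 15923 probe sets, 57 were manufacturer's controls, 12783 had 1 gene, 312 several and 2771 none in the platform annotation, and symbols were updated through the gene ID, found for 12748, in the GRCr8 gene table.

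The GLUT1 array was scaled to a median log2 ratio of 0 over the brighter probe sets (a shift of -0.0013), values below the 25th percentile (175) were set to it, and log2 was taken. A gene was measured from a mean log2 intensity of 8.99 (an intensity of 507), which kept 6114 of 10411 genes. Intensities are printed as deposited and ratios after scaling. For promoters, the first listed start of a gene was used. The members and lists were chosen with earlier results of these data known. Genes were named by rule: the 10 highest and 10 lowest members, those with several probe sets, the 4 brightest of each subunit, members picked for their roles, and the 2 farthest genes of each list; other genes named, among them Acta2, Tagln, Mrpl18, Mrpl32, Mrpl46 and Mrps11 with their neighbours, were chosen after their values were seen. No p-value was computed, and the number of arrays limits the precision. Steps were tested on simulated data. Protein sequences were not used here. Python 3.11.15, numpy 2.4.6, pandas 2.3.3 and scipy 1.17.1 were used.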

Additional observations from a re-analysis of the deposited data

How the results depend on the processing

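No paired analysis was possible because there is only 1 array of GLUT1 cells and 1 of control cells. Other settings of scaling, floor, filter, probe set, naming and subunit were tried, 12 for the Mrpl median and the Mrpl minus Mrps difference and 11 for the medians of all members and of Mrps and the count of members 1.2-fold lower. In these the 3 medians stayed above 0, the difference stayed below 0, and the count was 0. The median log2 ratio ran from 0.05 to 0.06 over all members, from 0.03 to 0.05 over Mrpl and stayed at 0.07 over Mrps, and the Mrpl minus Mrps difference from -0.04 to -0.03, the last with mrpl9, mrpl11 and mrpl24 added. The brightest probe set of every member lies above all the floors tried, so those settings could not alter these values. All 71 members already passed the filter, so removing that filter could not either, and symbols as listed gave the same values. Leaving out the scaling moves every ratio alike, so it could not alter the difference. The difference was also the same with all probe sets averaged, or with Mrps18a and Mrps30 moved to the large subunit. Settings that could not alter a value give it no support. When only probe sets in the top of the brightness range (75th percentile and up) counted, 45 members were left, of which 31 lay above 0 and 2 were 1.2-fold higher. The second probe set brought Mrpl51 to -0.11, and brought Mrpl37 to 0.08, Mrpl57 to 0.09, Mrpl52 to 0.06 and Mrpl49 to -0.03. Averages of all probe sets kept the sign of each of the 8 genes. The planned comparison of protein features was not run.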

Other observations

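In all, 3 genes are listed in the annotation with a small first letter, as mrpl9, mrpl11 and mrpl24, and so fell outside the symbol rule. mrpl9 had an intensity of 2210 on the GLUT1 array and 2043 on the control array, a log2 ratio of 0.11. mrpl11, a protein at the base of the stalk, had 3785 on the GLUT1 array and 3634 on the control array, a log2 ratio of 0.06. mrpl24, near the exit tunnel, had 2346 on the GLUT1 array and 2279 on the control array, a log2 ratio of 0.04. All 3 lay above 0, and with them, an addition made after seeing the data, 50 of 74 genes did, with a median log2 ratio of 0.06. All 3 belong to the large subunit, and with them the Mrpl median was 0.05, against 0.03 without, and the Mrpl minus Mrps difference -0.03, against -0.04 without. Of 77 protein-coding genes of the family in the current rat gene table, Mrpl47, Mrps10 and Mrps18c were not analysed here.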
